A study of Rattus norvegicus with 21 samples.

Results

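Oligodendrocyte conditioned medium (OCM) is culture medium that has taken up what oligodendrocytes release. Purified hippocampal GABAergic neurons given OCM were compared with purified GABAergic neurons that received none, over all genes with a symbol. The comparison took every neuron labelled both GABAergic and purified, which gave 5 neurons with OCM and 5 without, 10 of the 21 single neurons of the series. Each neuron was recorded with a patch electrode, its contents were drawn into the electrode, and its RNA was sequenced as a library of its own. All 10 neurons came from Wistar rats transgenic for VGAT-Venus, a fluorescent reporter under the promoter of the vesicular GABA transporter, dissected at embryonic day 18 and kept 17 days in vitro. Both cultures were treated alike with the antimitotic agents FdU and U at 5 µM, begun 24 h after dissection and taken off after 36 h. OCM came from oligodendrocytes of postnatal day 2 Wistar rat cortex, cultured for 7 to 15 days before they were shaken overnight, and it was added on day 3 in vitro. The labels name no control medium for the neurons without OCM, and no animal, culture or day for any neuron. Each group was therefore treated as 1 sample: no p-value or standard error is given, and any SD or range is that of the 5 cells of a group. The OCM neurons are called OCM cells 1 to 5 and the neurons without it purified cells 1 to 5, and per-cell values follow that order. All OCM cells and purified cells 1 to 4 have titles that begin with S. The title of purified cell 5 begins with P, letters that the labels leave unexplained.

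Oligodendrocytes wrap axons in myelin, and with their precursors they release proteins and lipids that act on neurons. In hippocampal cultures such factors are known to promote the clustering of sodium channels and node proteins along axons of GABAergic neurons before myelin forms. When a neuron fires, calcium entry switches on immediate early genes such as Fos and Egr4 through transcription factors that include CREB, which binds the cAMP response element TGACGTCA. GABAergic neurons of the hippocampus fall into classes marked by neuropeptides and other proteins, among them somatostatin cells, cholecystokinin cells and reelin cells.

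The 5 OCM cells had 5730139 to 12967563 reads, against 2442814 to 7821375 in the 5 purified cells. OCM cells had 3992 to 6331 table rows above 0 and purified cells 2573 to 4065. With every cell thinned to 2442814 reads, OCM cells had 3781 to 5778 rows above 0 and purified cells 2549 to 3865, so that OCM cell 3 was below purified cell 2 and the other 4 OCM cells were above every purified cell. Rows without a symbol took 13.6% to 21.1% of the summed values in OCM cells and 20.0% to 30.1% in purified cells, and 1 such row took 18.4% of purified cell 5. Oligodendrocyte markers were at or near 0: of 18 listed, none was measured, and their sum was 0 to 10.2 in OCM cells and 0 to 857 in purified cells, where Cnp at 857 in purified cell 2 made up the highest sum. Olig2, Sox10 and Mog were listed at 0 in all 10 cells. Microglia markers summed to 0 to 0.509 in OCM cells and 0 to 106 in purified cells, and vascular markers to 0 to 16.3 and 0 to 35.6 in the same order. Astrocyte markers summed to 4739 to 11325 in OCM cells and 108 to 8096 in purified cells, mostly through Clu, which neurons can also express, whereas Gfap was listed at 0 in all 10 cells. Slc17a7, the vesicular glutamate transporter of hippocampal pyramidal neurons, was listed at 0 in every cell. In OCM cell 2, the cell with the most rows above 0, 7 of the 15 glutamatergic markers and 9 of the 11 astrocyte markers in the table were above 0, Aqp4 at 22.4 and Apoe at 242.

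**Figure D1:**
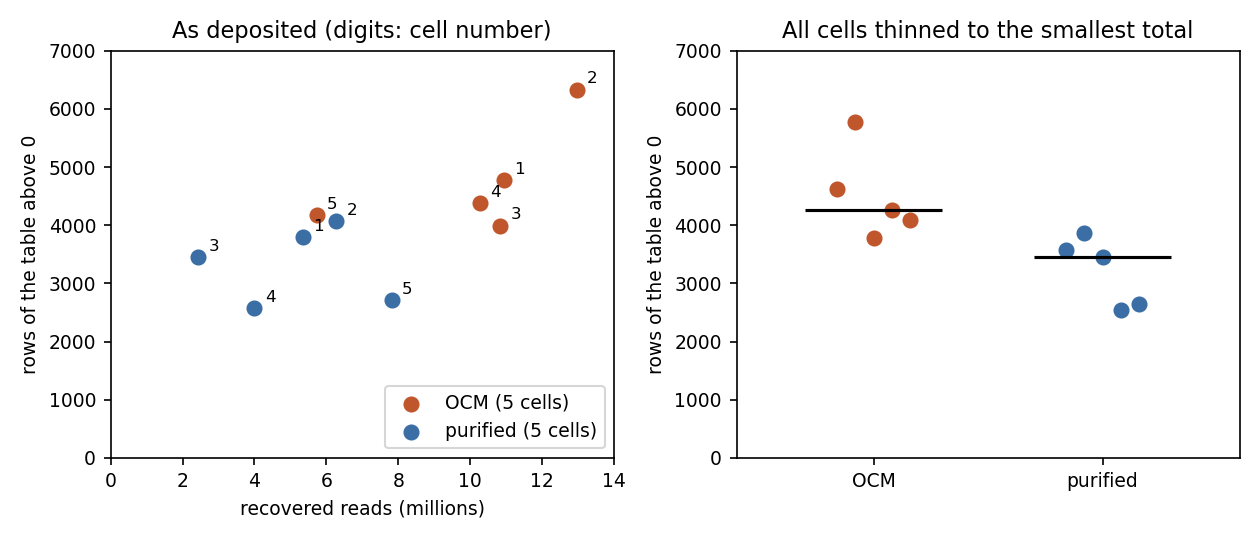
The left panel plots table rows above 0 against reads recovered, 1 point per cell with its cell number, and the right panel the rows after thinning every cell to 2442814 reads, OCM cells left of purified cells with a bar at the median. OCM cells span 3781 to 5778 rows after thinning and purified cells 2549 to 3865, with OCM cell 3 below purified cell 2.

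Values are the deposited normalized read counts. A gene is called measured when it was above 0 in at least 3 of the 10 cells, which 5144 of 16245 symbols were. Its difference is the mean of log2(value + 1) over OCM cells minus that over purified cells. This scale understates folds of low genes, while a single 0 among high values can widen a difference. Genes are called higher or lower by the sign of their difference, with no test behind it. Over the measured genes the median difference was 1.40, and 70.0% were higher and 30.0% lower in OCM cells. This lean moved with detection: 3157 measured genes were above 0 in more OCM than purified cells and 742 in fewer. Among the 563 genes above 0 in all 10 cells the median difference was 0.065, with 53.6% higher and 46.4% lower. How far depth, RNA yield and detection shape any single gene was not tested, so each list is read below beside these shares.

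A stricter description is that every OCM cell lay above every purified cell, or below it, called no overlap. In OCM cells 41 genes were higher with no overlap, which is 0.797% of those measured, and 12 were lower, which is 0.233%. Leaving out 1 cell at a time gave 60 higher genes without purified cell 4 and up to 91 without purified cell 2, and 16 to 42 lower genes, the most without purified cell 5. Fewer cells overlap less often. Of the 41 genes, 14 were above 0 in all 5 OCM cells and in no purified cell: Cdc27, Dlg3, Gadd45g, Gphn, Kcnip1, Kcnk3, Kdelr2, Prr7, Selenoo, Slc30a4, Snrpf, Tmed7, Tubgcp6 and Ublcp1. No gene was above 0 in all 5 purified cells and in no OCM cell.

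Kdelr2, the receptor that returns escaped chaperones from the Golgi to the endoplasmic reticulum, had the widest gap. It stood at 1062, 2685, 1481, 756 and 2819.6 in OCM cells and at 0 in all 5 purified cells. Against a floor of 3 reads over the purified group, its mean in OCM cells was at least 1837-fold higher. Such folds, here and below, allow for counting error only. Reads came in pairs whose counting is not described, and a 0 can be a missed transcript. These folds therefore do not bound expression. Kdelr2 lies at chr12:13192519-13210759 in rn6, the build of all gene positions given here. GABAergic neurons kept with glia had 0 to 2707, a range that takes in 0 as well as values like those of OCM cells.

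A pair of potassium channel genes followed. Kcnk3 encodes TASK-1, a leak channel that helps set the resting potential, and lies at chr6:27154280-27190219. OCM cells had 488, 458, 994, 567 and 2063, against 0 in all 5 purified cells, at least 953-fold higher. Kcnip1 encodes KChIP1, a calcium-binding subunit of Kv4 channels that is found in many interneurons, and lies at chr10:18558128-18942677. It had 531, 428, 1289.9, 506 and 2362 in OCM cells and 0 in all 5 purified cells, at least 1068-fold higher. OCM cell 5 was the highest cell for both genes, and no purified cell had a read of either. Neurons kept with glia had 0 to 555 for Kcnk3 and 0 to 2517 for Kcnip1.

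Gadd45g, a stress and activity-induced gene of the growth arrest and DNA damage family at chr17:13391474-13393237, had 369, 1011, 1354, 609 and 1342 in OCM cells and 0 in all 5 purified cells, at least 978-fold higher. Slc30a4, a zinc exporter of vesicle membranes, had 141, 96.7, 62.3, 317 and 346 in OCM cells and 0 in all 5 purified cells. Mpp6, a membrane scaffold of the MAGUK family, had 3325, 1464, 3253, 4589.7 and 963 in OCM cells and 0, 27.1, 0, 0 and 0 in purified cells, where purified cell 2 alone was above 0. Dlg3, which encodes the synaptic scaffold SAP102, ranged over 32.6 to 1542 in OCM cells and was 0 in all 5 purified cells. Gphn, gephyrin, which anchors GABA-A and glycine receptors at inhibitory synapses, ranged over 18.4 to 2561 in OCM cells and was also 0 in all 5 purified cells. The lowest OCM cell was thus at 32.6 for Dlg3 and 18.4 for Gphn, low values next to those of the genes above. The other genes among the 12 widest gaps were Cluh, Ublcp1, Snrpf and Ivns1abp.

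The 12 genes lower with no overlap were Mrps21, Sumo2, Gp1bb // Sept5, Hmox2, Nell2, Stmn1, Polr2e, Commd8, Cdc42se2, Aimp1, Vdac3 and Cdc16. Sumo2, a ubiquitin-like protein attached to other proteins, had 615, 526, 939, 829 and 966 in OCM cells and 5539, 4035, 1694, 4969 and 1746 in purified cells. Mrps21, a mitochondrial ribosomal protein, had 242, 418, 447, 144 and 0 in OCM cells, against 815, 1558, 1091, 1290 and 1088 in purified cells. Hmox2, the constitutive heme oxygenase, had 691, 581, 90.4, 456 and 651 in OCM cells and 1048, 1792, 938, 1656 and 1659 in purified cells. These 3 genes were above 0 in every cell but OCM cell 5 for Mrps21, and they differed in level: Sumo2 by -2.08, Mrps21 by -3.63 and Hmox2 by -1.76 on the log2 scale. Without OCM cell 5 the difference of Mrps21 was -2.0. Polr2e, a shared subunit of RNA polymerases, was 0 to 563 in OCM cells and 679.9 to 1767 in purified cells. Rows without a symbol are left out of these counts, and 8 of them were higher and 2 lower with no overlap.

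Activity-regulated genes were split into transcription factors and effectors. Of 25 listed transcription factors 9 were measured, of which 8 were higher in OCM cells, with a median difference of 3.83, or 5.68 with the genes at 0 in a whole group set at their bound and 1.69 over the members above 0 in at least 1 cell. Of 30 listed effectors 10 were measured and all 10 were higher, with a median of 5.02, or 5.67 at the bound and 2.03 over the members above 0 in at least 1 cell. Over all measured genes 70.0% were higher with a median of 1.40, or 0.79 over genes above 0 in at least 1 cell. Some members counted as measured through OCM cells alone, namely Fosb, Egr4 and Nr4a3 among the factors and Gadd45g and Rgs4 among the effectors, so these had to be higher. Leaving out OCM cell 2 took the factors' median to 6.28. Averaged over the 10 effectors, log2(value + 1) was 6.61 to 8.57 in OCM cells and 1.45 to 4.96 in purified cells, with no overlap. Averages of 5 other lists did not overlap either: calcium genes, sodium channels, kinesins with dynein and tubulins, nuclear genes of oxidative phosphorylation, and glycolysis. The size of the effectors' median depended on how cells were summed, and was 1.85 when the median over cells stood in for the mean and 6.65 with a pseudocount of 0.1. At these settings the median of all measured genes was 0.27 and 2.05 in turn. The same average over the 9 transcription factors was 3.52 to 8.58 in OCM cells and 0.87 to 3.74 in purified cells, which overlapped.

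Fos, the immediate early gene most used to mark recent activity, had 574, 768, 1132, 4413 and 9682 in OCM cells and 19.8, 3007, 0, 0 and 131 in purified cells. OCM cells 4 and 5 were the highest, but purified cell 2 exceeded OCM cells 1 to 3, and the difference of 6.26 became 5.11 to 8.0 when 1 cell at a time was left out. Egr4, an early growth response factor at chr4:117293619-117296082, had 137, 0, 695, 152 and 552 in OCM cells and 0 in all 5 purified cells. It was above 0 in 4 of 5 OCM cells and was at least 321-fold higher on the group means. Egr1, of the same family, had 1170.4, 111, 1456, 85.3 and 4240.2 in OCM cells and 84.1, 2309.7, 0, 0 and 0 in purified cells, again with purified cell 2 inside the OCM range. Purified cell 2 was also the 1 cell with Npas4, a factor induced by calcium entry, at 2059 against 0 in every other cell. Nr4a3, an orphan nuclear receptor, was 745, 123, 53.8, 0 and 0 in OCM cells and 0 in all 5 purified cells. Klf6 was 438, 0, 0, 0 and 3077 in OCM cells and 0, 1.36, 0, 0 and 0 in purified cells, and Fosb was above 0 in OCM cells 2, 4 and 5 only, at most 599.

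Effectors act on signalling, vesicles and growth after such factors have been induced. Rgs2, which shortens signalling through Gq proteins, had 1989, 2143, 785, 4514 and 1706 in OCM cells and 0, 0, 0, 0 and 10891 in purified cells. Every OCM cell was above purified cells 1 to 4, and purified cell 5 was above every OCM cell. Scg2, secretogranin II of dense-core vesicles, had 20587, 26945, 15489, 10341 and 27307 in OCM cells and 0, 5.42, 5535, 12133 and 5470.1 in purified cells. Only purified cell 4 reached the OCM range, just above OCM cell 4. Plk3, a stress-responsive kinase, had 441, 205, 0, 1395 and 991 in OCM cells and 0, 0, 11, 0 and 0 in purified cells. Dusp1, a phosphatase that switches off MAP kinases, had 398, 453, 0, 881 and 2167 in OCM cells and 0, 0, 0, 0 and 3011 in purified cells, the highest value again in purified cell 5. Vgf, a neuropeptide precursor induced by activity and neurotrophins, overlapped widely, with 3929.7, 756, 983, 3388 and 6504 in OCM cells and 4.94, 3532, 1354, 487 and 4751 in purified cells. Arc, the postsynaptic immediate early gene, was too rare to compare, at 18 and 36.6 in OCM cells 1 and 2 and 0 in the other 8 cells.

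**Figure D2:**
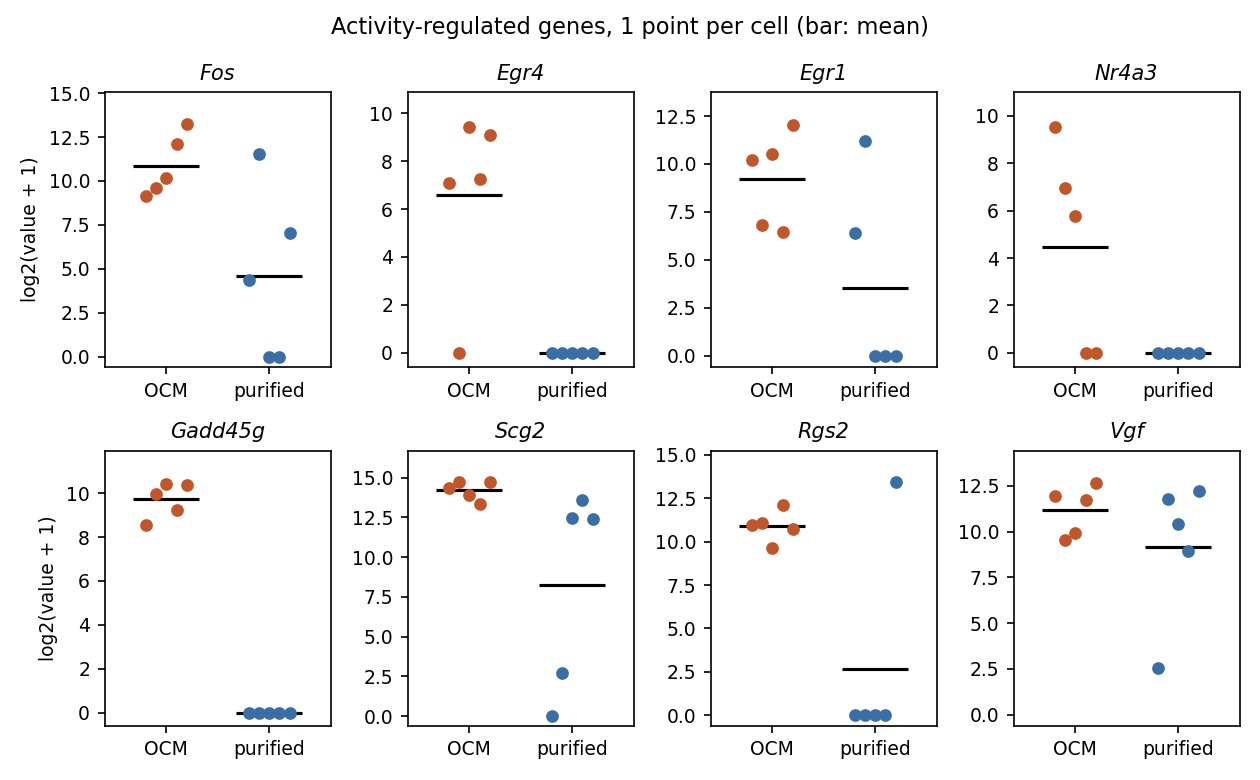
Deposited normalized values on the log2(value + 1) scale for 8 activity-regulated genes, OCM cells left of purified cells, 1 point per cell with a bar at the mean. Gadd45g shows no overlap, and Egr4 and Nr4a3 are above 0 in OCM cells alone. For Fos, Egr1 and Scg2 1 purified cell lies inside the OCM range, for Vgf 3 do, and the 1 purified cell with Rgs2 lies above every OCM cell.

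Promoters of the activity-regulated genes were searched for the palindromic cAMP response element, as CREB sites are known near many such genes. The sequences are those of RefSeq for assembly GRCr8, from 250 bases before to 50 after each gene's start, and a match is a description of letters, not of binding. TGACGTCA, which reads the same on both strands, was in the promoter of 549 of 27457 genes, or 2.00%. Among the 10 measured effectors it was in 4, or 40.0%: Dusp1, Plk2, Scg2 and Vgf. Among the 6 measured transcription factors with a promoter in the table it was in Jund alone, or 16.7%. Over all listed members with a promoter it was in 4 of 20 effectors, or 20.0%, and in 5 of 19 transcription factors, or 26.3%. Of the genes higher with no overlap it was in 2 of 31, or 6.45%, and of those lower with no overlap in 0 of 8. Subtype markers and dense-core vesicle genes were searched as well. Among the 6 measured subtype markers with a promoter it was in Sst alone, or 16.7%, and among the 15 listed in 2, or 13.3%. Among 11 measured dense-core vesicle genes it was in 2, or 18.2%, Scg2 and Vgf, which are also effectors. Stretches around the element are shown for Scg2, Dusp1 and Vgf, which were higher in OCM cells, and for Jund, which was lower. All 4 genes overlapped between the groups. Capitals mark TGACGTCA, each stretch is given 5′ to 3′ on the gene's strand, and its coordinates are those of GRCr8.
Scg2, chr9:88256936-88257035, minus strand: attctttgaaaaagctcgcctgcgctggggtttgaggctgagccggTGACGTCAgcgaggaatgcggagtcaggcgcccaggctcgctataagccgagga
Dusp1, chr10:17184683-17184782, plus strand: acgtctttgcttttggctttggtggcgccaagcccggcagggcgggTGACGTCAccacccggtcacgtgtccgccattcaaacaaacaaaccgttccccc
Vgf, chr12:25277057-25277156, minus strand: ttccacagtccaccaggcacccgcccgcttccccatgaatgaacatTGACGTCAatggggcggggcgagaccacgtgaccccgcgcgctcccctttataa
Jund, chr16:18769961-18770016, minus strand: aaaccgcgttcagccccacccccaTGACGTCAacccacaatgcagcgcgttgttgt
The element began 123 bases before the annotated start in Scg2, 124 in Dusp1, 90 in Vgf and 221 in Jund. Jund, named for its promoter after its values were seen, had 8.14, 601, 0, 0 and 1326 in OCM cells and 7.42, 853, 784, 225 and 57.8 in purified cells, a difference of -2.67, which became -4.12 without OCM cell 5 and -1.53 without OCM cell 3. The differences of the other genes shown were 5.99 for Scg2, 5.36 for Dusp1 and 1.99 for Vgf.

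The neurons were recorded before they were sequenced, and genes of membrane excitability were taken next. All 9 measured voltage-gated sodium channel genes of 13 listed were higher in OCM cells, with a median difference of 1.67, close to the 1.40 of all measured genes. Scn1a, which encodes Nav1.1, the main sodium channel of many fast-spiking interneurons, had 0, 1292, 4.28, 312 and 2388 in OCM cells and 0, 0, 0, 10.3 and 1.87 in purified cells. OCM cells 2, 4 and 5 stood far above every purified cell, while OCM cells 1 and 3 lay within the purified range. Scn8a, the Nav1.6 channel of mature nodes, was not measured, with 882 and 613 in OCM cells 1 and 2 and 0 in the other 8 cells. Scn2a, which encodes Nav1.2, had 4198, 4486, 3338, 3919 and 2734 in OCM cells and 4006, 5.42, 2358, 2551 and 4554 in purified cells: apart from purified cell 2, the groups overlapped. Fgf12 and Fgf13, intracellular partners of sodium channels, had 394 to 1492 and 1525 to 2467 in OCM cells, against 14.8 to 784 and 0 to 5966 in purified cells. Without purified cell 1, where it was 0, Fgf13 had a difference of -0.98 in place of 1.39. The median of the sodium channel list was 0.15 when the median over cells stood in for the mean, where that of all measured genes was 0.27.

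Of 18 measured genes of the axon initial segment and node 14 were higher, with a median of 1.17, against 70.0% and 1.40 over all measured genes. Tnr, tenascin-R, a matrix protein of nodes and perineuronal nets, was the 1 member with no overlap. It lies at chr13:77602249-77678385 and had 486, 74.8, 3114, 32.2 and 2427 in OCM cells and 0, 6.78, 0, 0 and 0 in purified cells. OCM cells 3 and 5 were the highest, and OCM cell 4, the lowest, was still above purified cell 2. Cntn2, an adhesion protein next to nodes, had 288, 0, 365, 0 and 146 in OCM cells and 0 in all 5 purified cells. Epb41l3, protein 4.1B, which links paranodal proteins to the cytoskeleton, was above 0 in all 5 OCM cells and in 3 purified cells, and its ranges overlapped at 576 to 2970.1 in OCM cells and 0 to 2957 in purified cells. Ank3, ankyrin-G, the organiser of initial segments and nodes, was read in only 2 of the 10 cells, OCM cells 2 and 5, at 256 and 17.1. Nfasc, its neurofascin partner, was read in OCM cells 1 and 3 and purified cell 2. Among the 3 members above 0 in all 10 cells, 1 was higher and the median was -0.29, so the lean of this list rested on genes missing from some cells. Leaving out OCM cell 1 took the median over all 18 to 0.37, and leaving out purified cell 2 took it to 2.23.

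Potassium and HCN channel genes gave 17 higher of 24 measured, or 70.8%, near the 70.0% of all measured genes, with a median of 1.08. That median was 0.30 without OCM cell 2 and 2.4 without purified cell 5. Beyond Kcnk3 and Kcnip1, Kcna1, the Kv1.1 channel of axons, had 599.7, 1034, 0, 294 and 1746 in OCM cells and 0 in all 5 purified cells, at least 767-fold higher on the group means. Kcnc2, the Kv3.2 channel of fast-spiking and somatostatin interneurons, had 23.2, 215, 2002, 241 and 3645 in OCM cells and 0, 674, 0, 0 and 5.6 in purified cells. Purified cell 2 lay inside the OCM range and the other 4 purified cells lay below it. Kcnip4, another KChIP subunit of Kv4 channels, ran the other way, with 0 in all 5 OCM cells and 0, 963, 1225, 1582 and 0 in purified cells. No cell had reads of both Kcnip1 and Kcnip4: all 5 OCM cells had Kcnip1 alone, purified cells 2 to 4 Kcnip4 alone, and purified cells 1 and 5 neither.

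Calcium channel, pump and buffer genes gave 13 higher of 23 measured, or 56.5%, against 70.0% of all measured genes, with a median of 1.41. Without purified cell 5 the median was 0.64, and without OCM cell 3 it was 2.26. Cacna1a, the pore of P/Q-type calcium channels that drive transmitter release, was 334, 187, 511, 7.88 and 2776 in OCM cells and 1247, 2.71, 0, 0 and 0 in purified cells. Slc8a1, a sodium-calcium exchanger, was above 0 in OCM cells 2 to 5 and in no purified cell. The 4 members above 0 in every cell were all lower, among them Atp2b2, a calcium pump of the plasma membrane, by -0.76, named after its values were seen. Without OCM cell 4 the difference of Atp2b2 was 0.17, and without OCM cell 2 it was -1.33.

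Neurofilaments, the intermediate filaments that set axon calibre, are made of several subunits. Nefl, the light subunit, had 19233, 12611, 11224, 14993 and 26077 in OCM cells and 4774, 6029.8, 4351, 7195 and 272 in purified cells. It averaged 16828 ± 5998 in OCM cells and 4524 ± 2625 in purified cells (SD over 5 cells each), with no overlap and a difference of 2.42. Nefh, the heavy subunit, which appears last as axons mature, had 8705, 2641, 1438, 7118 and 3887 in OCM cells and 0, 0, 0, 0 and 1386 in purified cells, again with purified cell 5 as the only purified cell above 0. Nefm, the medium subunit, had 25663, 5715, 4643, 6467 and 11139 in OCM cells and 714, 529, 479.8, 3982 and 11949 in purified cells, where purified cell 5 reached the OCM range. Map1a, a microtubule protein of mature neurons, had 2873, 3221, 1883, 5698 and 7573 in OCM cells and 213, 2.71, 35.6, 1634 and 1112 in purified cells, with no overlap. Stmn1, stathmin, which destabilizes microtubules and is high in young neurons, was lower with no overlap, at 4788, 4619, 5561, 5074 and 1408 in OCM cells and 14204, 12803, 7199, 33909.7 and 7201 in purified cells. Gap43, a protein of growing axons that defines immature neurites, had 12978, 2070.5, 3139, 901 and 1638 in OCM cells and 10168, 10358, 4740.1, 5948 and 3802 in purified cells, where OCM cell 1 was the highest of all 10 cells and the other 4 OCM cells were below every purified cell. Over the whole list of 22 measured genes, 11 were higher and 11 lower, with a median of 0.17 that became -0.088 without purified cell 3. In this list 3 genes were higher and 1 lower with no overlap, and members such as Mapt and Tubb3 had differences of -0.02 and -0.20, both of which changed sign when single cells were left out.

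**Figure D3:**
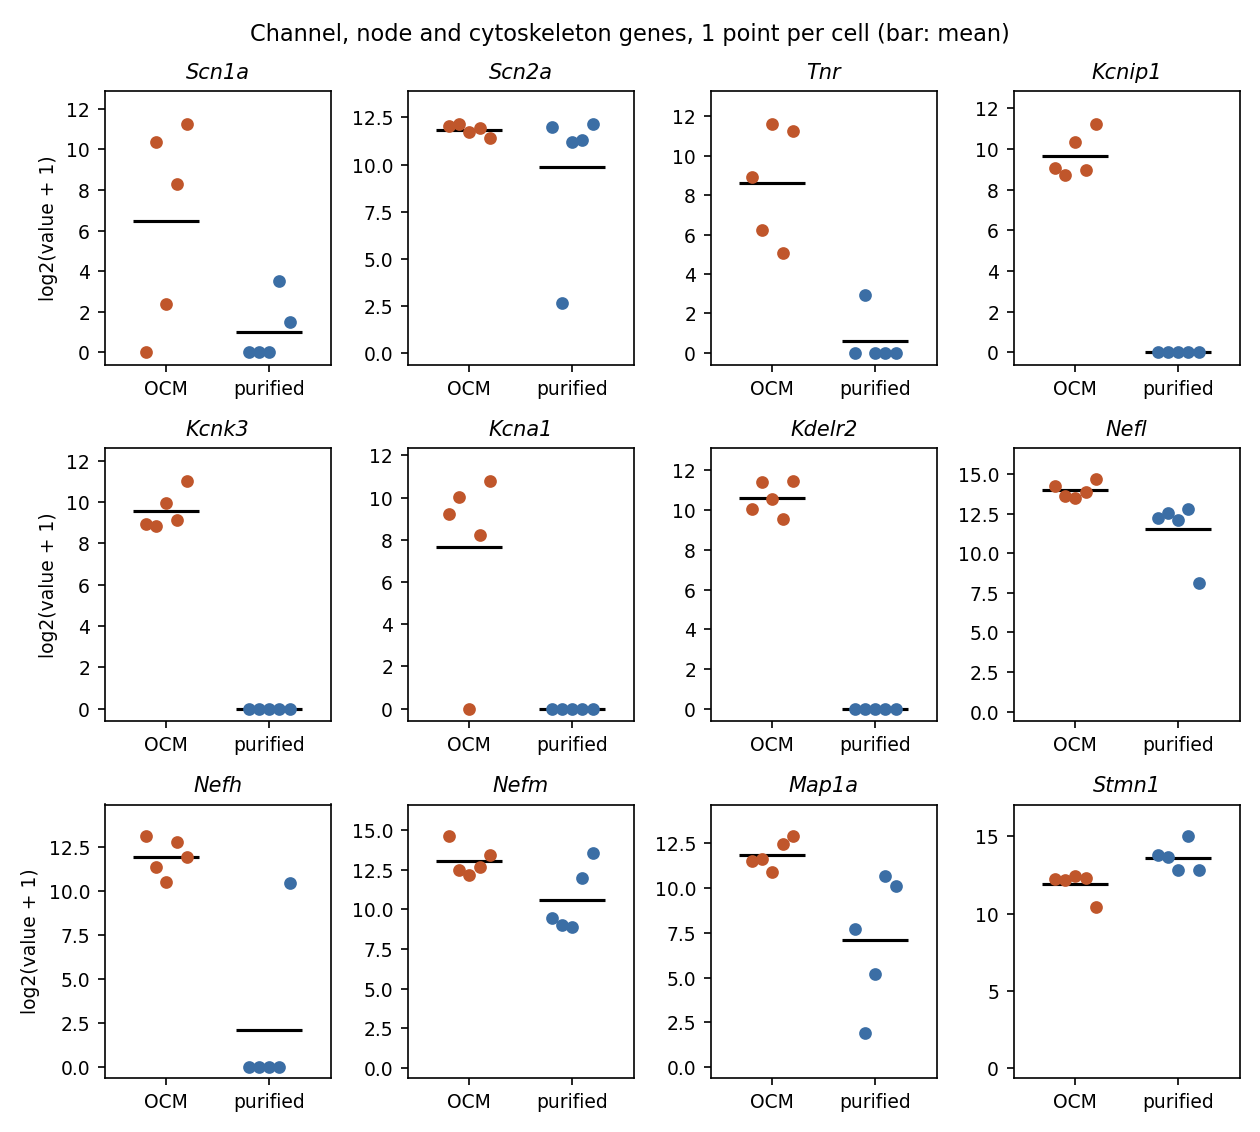
Deposited normalized values on the log2(value + 1) scale for genes of channels, nodes, secretion and cytoskeleton, OCM cells left of purified cells, 1 point per cell with a bar at the mean. Tnr, Kcnip1, Kcnk3, Kdelr2, Nefl, Nefh and Map1a are higher in OCM cells with no overlap, Stmn1 is lower with none, and Scn1a, Scn2a, Kcna1 and Nefm overlap.

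Receptors for GABA and glycine gave 8 higher of 12 measured, or 66.7%, against 70.0% of all measured genes, with a median of 2.23. The median was 4.08 without purified cell 2. Besides gephyrin, Gabrb2, the beta2 subunit of GABA-A receptors, had 362, 986, 1098, 1386 and 183 in OCM cells and 672, 0, 16.4, 0 and 166 in purified cells. Gabrb1, the beta1 subunit, was the reverse, with 0 in all 5 OCM cells and 0, 1840.4, 5.48, 678 and 0 in purified cells. Glutamate receptors gave 6 higher of 8 measured, or 75%, with a median of 2.79. Gria4, an AMPA receptor subunit typical of interneurons, had 2172, 1379, 3275, 4475 and 4972 in OCM cells and 2.47, 0, 1489, 0 and 0 in purified cells, where purified cell 3 alone lay above OCM cell 2. Grik1, a kainate receptor subunit, had 0, 1758, 2.44, 0 and 0 in OCM cells and 687, 0, 255, 3624 and 0 in purified cells. Its difference of -3.34 became -5.40 without OCM cell 2 and -1.84 without purified cell 4.

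Presynaptic release genes gave 25 higher of 33 measured, or 75.8%, with a median of 1.02, below that of all measured genes. The median was 0.66 without OCM cell 5 and 1.57 without OCM cell 1. Bsn, bassoon, a scaffold of release sites, was the 1 member with no overlap, at 60.4, 15.3, 97.8, 942 and 172 in OCM cells and 0, 2.71, 0, 0 and 0 in purified cells, and these are low values. Syt4, a synaptotagmin of dense-core vesicles, had 629, 2.03, 100.2, 2889 and 1962 in OCM cells and 2.47, 0, 0, 0 and 0 in purified cells, where OCM cell 2 lay below purified cell 1. Synaptic adhesion and scaffold genes gave 18 higher of 25, or 72.0%, near the 70.0% of all measured genes, with a median of 1.62 that became 2.70 without OCM cell 3. Both members above 0 in all 10 cells were lower, with a median of -1.37. Cntnap4, an adhesion protein of interneuron synapses, had 264, 2017, 0, 1595 and 5707 in OCM cells and 0, 2459, 0, 0 and 0 in purified cells.

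The GABAergic label was checked against its markers, and all 10 cells had reads of Gad2 and Slc32a1. Gad1, the enzyme that makes most GABA in the cell body, had 2422, 11930.5, 15540.2, 8585 and 12320.4 in OCM cells and 2929.6, 1636, 2574, 0 and 2725 in purified cells. Only OCM cell 1 lay inside the purified range, and purified cell 4 had none. The difference of Gad1 was 4.09, and 1.84 without purified cell 4. Gad2, the synaptic form of the enzyme, had 5156, 3297, 8487, 9216 and 13024 in OCM cells and 1197, 2122, 9006, 14087 and 898 in purified cells, with purified cell 4 the highest of all. Slc32a1, the vesicular transporter that the reporter marks, had 1837, 975, 335, 251 and 112 in OCM cells and 705, 462, 1357, 390.4 and 652 in purified cells, a difference of -0.54 with wide overlap that became -0.051 without OCM cell 5 and -1.06 without OCM cell 1. The list gave 9 higher of 14 measured, or 64.3%, with a median of 1.40, the same as that of all measured genes. Without purified cell 5 this median was 0.73, and without purified cell 2 it was 2.21.

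Subtype markers ran in both directions. Of 10 measured, 5 were higher and 5 lower. Sst, somatostatin, had 325053, 966, 19012, 124726 and 234564 in OCM cells and 2.47, 130.2, 0, 0 and 243977 in purified cells. OCM cells 1, 3, 4 and 5 were high, OCM cell 2 was far lower, and purified cell 5 was the second highest of all 10 cells. Npy, a neuropeptide often made in the same cells, had 101264, 7269.6, 34072, 54723 and 276125 in OCM cells and 0, 0, 3964, 0 and 185668 in purified cells. Pnoc, the nociceptin precursor, had 3772, 5715, 2696, 7316 and 7412 in OCM cells and 0, 2.71, 288, 0 and 9482 in purified cells. Satb1, a chromatin protein needed for maturation of somatostatin interneurons, had 579, 257, 1643, 1480.5 and 2218 in OCM cells and 0, 0, 0, 0 and 2685 in purified cells. For Npy every OCM cell was above purified cells 1 to 4, as it was for Pnoc and Satb1, and purified cell 5 fell among or above the OCM cells for all 3 genes. Calb1, calbindin, had 2583, 0, 1191, 1226 and 23555 in OCM cells and 0 in all 5 purified cells.

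Several markers of other interneuron classes were found mainly in purified cells 1 to 4, but not all. Id2 had 255, 764, 815, 573 and 0 in OCM cells and 544, 3321, 16090, 648 and 0 in purified cells. Kit had 0, 209, 509, 0 and 0 in OCM cells and 918, 5049, 5.48, 0 and 0 in purified cells. Tac1 was read only in OCM cell 4 at 432 and purified cell 5 at 2348. Reln, reelin, had 0, 327, 0, 612 and 1078 in OCM cells and 4608, 10623, 10028, 6811 and 244 in purified cells, so that purified cells 1 to 4 were above every OCM cell and purified cell 5 lay within the OCM range. Penk, proenkephalin, had 0 in all 5 OCM cells and 21284, 627, 0, 25005 and 0 in purified cells. Cck, cholecystokinin, and Cnr1, the cannabinoid receptor that marks the same basket cells, were both high in purified cells 1 and 2, at 19464 and 28143 for Cck and at 38420 and 14967 for Cnr1. In OCM cells Cck was 0 and Cnr1 at most 3.67. Npas1, a transcription factor of interneurons from the caudal ganglionic eminence, had 0, 0, 80, 0 and 57.4 in OCM cells and 951, 6859.8, 0, 676 and 0 in purified cells. By these markers the OCM cells and purified cell 5 shared Sst, Npy, Pnoc and Satb1, while in purified cells 1 to 4 each of these was 0 or below every OCM cell. The class of neuron patched and the presence of OCM cannot be told apart for genes that differ between interneuron classes.

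**Figure D4:**
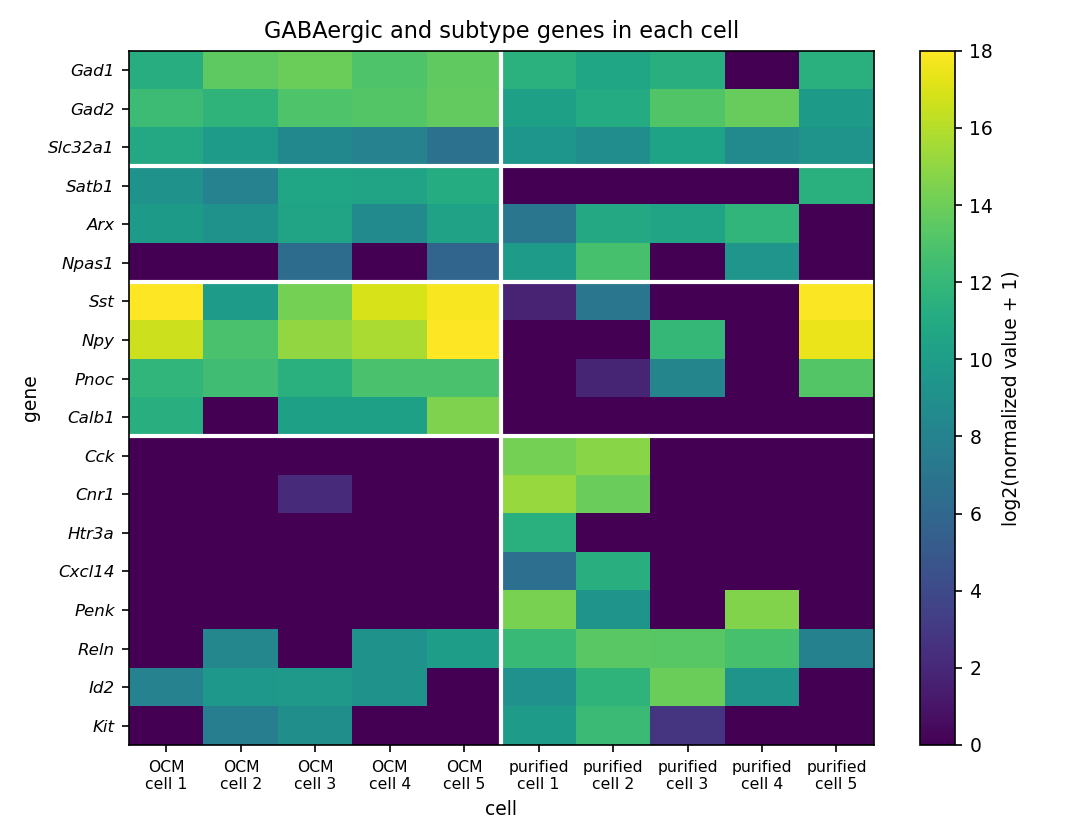
Deposited normalized values on the log2(value + 1) colour scale for GABAergic and subtype marker genes in each of the 10 cells, OCM cells left of purified cells. Sst, Npy, Pnoc and Satb1 are above 0 in all 5 OCM cells and high in purified cell 5, Reln is high in purified cells 1 to 4, and Cck and Cnr1 in purified cells 1 and 2.

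Several genes described above were likewise high in purified cell 5, the cell whose title begins with P, and leaving it out compares cells titled S only. Rgs2, Nefh and Satb1 were above 0 in that purified cell alone, and so was Dusp1. Without purified cell 5 the genes higher with no overlap numbered 74, and without each other purified cell in turn they numbered between 60 and 91. With purified cell 5 left out, the difference of Fos was 6.87 in place of 6.26, that of Npy 12.68 in place of 9.77, that of Sst 13.23 in place of 10.10 and that of Nefl 1.55 in place of 2.42.

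**Figure D5:**
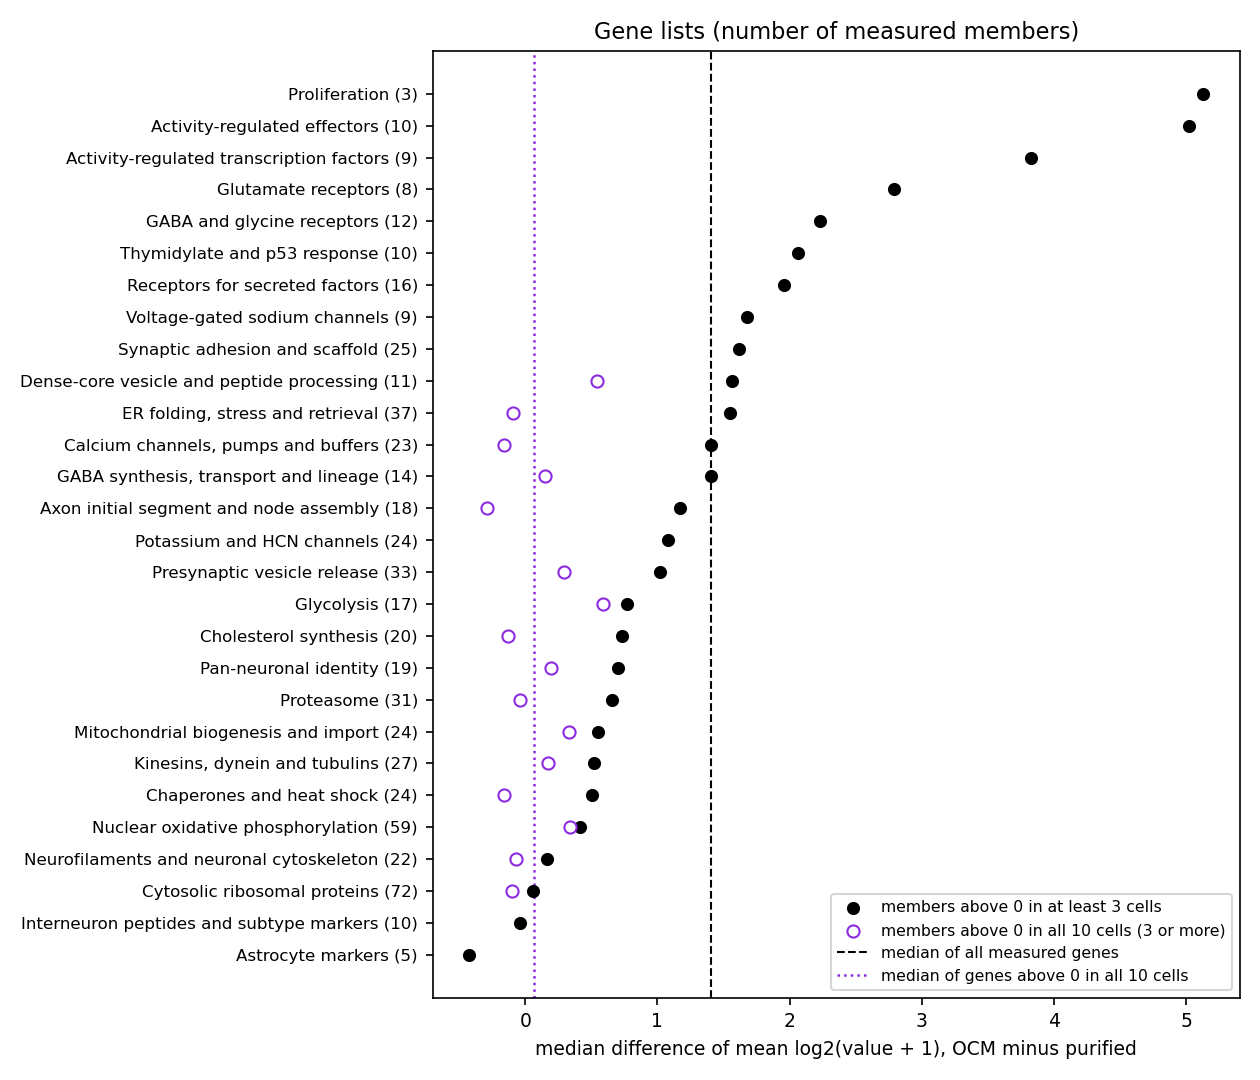
Median difference of mean log2(value + 1), OCM minus purified, for each gene list over its measured members, with the median of all measured genes at 1.40 and that of genes above 0 in all 10 cells at 0.065 as lines. Activity-regulated effectors at 5.02 and transcription factors at 3.83 lie right of both lines, as do other lists. Proliferation genes, with 3 measured, lie furthest right at 5.13, and glutamate receptors lie at 2.79 and GABA and glycine receptors at 2.23. Ribosomal proteins at 0.058 and cytoskeletal genes at 0.17 lie near the left line.

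Genes read in all 10 cells have no value of 0, but some were near 0 in single cells. The 8 with the largest positive differences were Map1a, Rnf6, Apba2, Pcdh9, Sez6, Nefm, Myl12a and Necap1, and the 8 with the largest negative ones were Fstl5, Polr2f, Eif4a1, Gp1bb // Sept5, Ppp2r5d, Gpm6b, Sarnp and Hnrnpu. Apba2, an adaptor of synaptic vesicle proteins, had 2017, 1673, 2388, 1354 and 3186 in OCM cells and 216, 2.71, 1968, 2743 and 16.8 in purified cells. Pcdh9, a protocadherin, had 2973, 3246, 3837, 1537 and 3091 in OCM cells and 218, 152, 38.4, 7222 and 2355 in purified cells, where purified cell 4 was the highest of all. Without purified cell 2 the difference of Apba2 was 2.42 in place of 3.76, and without purified cell 3 that of Pcdh9 was 1.70 in place of 2.59. Fstl5, a secreted follistatin-like protein, had 517, 0.509, 4222, 968 and 2126 in OCM cells and 8822, 8679.9, 1398, 5611 and 3898 in purified cells. Without OCM cell 2 its difference was -1.70 in place of -3.68. Leaving out OCM cell 3 changed Eif4a1 to -0.93 from -2.78 and Gpm6b to -0.63 from -2.46, and leaving out OCM cell 1 changed Hnrnpu to -0.79 from -2.17. Of these 563 genes 5 were higher and 5 lower with no overlap, 0.888% each.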

How the data were processed

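Polyadenylated RNA of single patched neurons was amplified with the SMART-Seq v4 kit. Libraries were prepared with Nextera XT and read in pairs on an Illumina NextSeq500, per the labels' protocols. The submitters' processing notes name build rn6 and, with no role or order, STAR 2.4.0, DESeq2, FastQC, Picard and SAMtools. How reads were counted, on which annotation and with or without strand, is not given in the sources used, so overlapping and antisense genes cannot be told apart.

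The authors deposited a never-negative signal per gene and cell, described as DESeq2-normalized. Each value was a whole read count divided by 1 factor per cell (true of 100% of values, to a tolerance of 0.05), which gave each cell's depth. No molecular identifiers are mentioned, so floors cover counting error only. The table has 34976 rows. Rows without a symbol, 18376 of them, were counted apart, and of rows with the same symbol the most abundant was used, leaving out 355. There were 0 columns of values without a sample. Of 16245 symbols 14108 are current in RefSeq's GRCr8 and 1739 are synonyms there. Coordinates are those of the deposited table, and promoters those of GRCr8.

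Per gene, log2(value + 1) was averaged over the 5 cells of each group and the difference taken. A count test was not run, as the labels tie no cell to an animal or culture and cells are not replicates. Named genes are the 12 per direction with the widest gap among genes with no overlap and a mean of at least 50, the 8 per direction with the largest difference among genes above 0 in all 10 cells, and up to 6 per list, with members that define a list. The 32 lists, their members and the comparison were chosen with earlier results of these data known. Thinning drew 2442814 reads per cell with seed 17. The steps were tested on simulated data of well-read genes, which did not copy the many values of 0 in these cells. Some genes are not reported here. Alternatives were other pseudocounts, scalings and filters, the median over cells, thinning and leaving out each cell. Computations used pandas 2.3.3, numpy 2.4.6 and matplotlib 3.10.9 under Python 3.11.15.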

Additional observations from a re-analysis of the deposited data

Results flagged for a closer look

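Within each group of 5 cells, the highest or lowest cell was marked when its gap to the next cell exceeded 0.71 of the group's range on the log2(value + 1) scale. This was met in 56 of 280 groups of cells, where chance flags about 1 in 20 groups of normally spread values. Genes read in some single neurons and not in others meet the criterion readily, and no cause was tested.

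Among OCM cells, 1 cell at 0 stood apart for Ackr3 and Egr4, missing from OCM cells 4 and 2, for Cdc42se2, Dusp1, Kcna1 and Plk3, all 0 in OCM cell 3, for Mrps21, 0 in OCM cell 5, and for Polr2e, 0 in OCM cell 1. OCM cell 3 was also far below the others for Eif4a1 at 1.22, Gpm6b at 2.44 and Hmox2 at 90.4. OCM cell 2 was far below for Fstl5 at 0.509, OCM cell 4 for Pcdh9 at 1537 and Tmed7 at 1.31, and OCM cell 5 for Polr2f at 4.65 and Stmn1 at 1408. A single high OCM cell was seen for Apoe at 242, Grik1 at 1758 and Nell2 at 215 in OCM cell 2. The same held for Commd8 at 686, Mdm2 at 174 and Tubb3 at 10697 in OCM cell 1, for Cnr1 at 3.67 in OCM cell 3 and for Robo2 at 24.8 in OCM cell 5. Averaged over lists, OCM cell 2 was high for calcium genes at 8.94 and OCM cell 3 low for pan-neuronal genes at 9.67.

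Among purified cells, purified cell 5 was the 1 high cell for Dusp1 at 3011, Nefh at 1386, Rgs2 at 10891 and Satb1 at 2685, and the low one for Gpi at 3.73, Nefl at 272 and Reln at 244. Purified cell 2 was the high one for Cntnap4 at 2459, Kcnc2 at 674, Lrp1 at 822, Nfasc at 635, Mpp6 at 27.1, Tnr at 6.78, Bsn at 2.71, Cluh at 1.36 and Klf6 at 1.36. It was the low one for Hnrnpu at 2.71 and Scn2a at 5.42. Purified cell 1 was high for Cacna1a at 1247, Plk2 at 1255 and Syt4 at 2.47 and at 0 for Fgf13. Purified cell 3 was high for Gria4 at 1489, Plk3 at 11 and Ivns1abp at 2.74 and low for Mapt at 886, and purified cell 4 was at 0 for Gad1. Averaged over lists, purified cell 4 was low for kinesin, dynein and tubulin genes at 7.02 and for nuclear genes of oxidative phosphorylation at 9.91, and purified cell 2 was high for mitochondrial biogenesis and import at 9.76.

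Outside the genes with a symbol, 8 of the 579 measured rows without one were higher in OCM cells with no overlap, or 1.38%, against 2 that were lower, or 0.345%.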

How the results depend on the processing

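Over genes above 0 in all 10 cells, 5 were higher and 5 lower with no overlap, and leaving out 1 cell gave 60 to 91 higher and 16 to 42 lower. The median over all measured genes was 0.79 with a pseudocount of 10, 2.05 with one of 0.1, 0.79 over genes above 0 in at least 1 cell, 0.065 over genes above 0 in all 10 cells and 0.27 with the median over cells, and 1.12 to 1.51 without 1 cell. The effectors' median was 3.23, 6.65, 2.03 and 1.85 with a pseudocount of 10, with 0.1, over genes above 0 in at least 1 cell and with the median over cells, and 4.65 to 6.67 without 1 cell. The transcription factors' median was 5.78 with a pseudocount of 0.1, 1.69 over genes above 0 in at least 1 cell and 3.81 to 6.28 without 1 cell. Potassium and HCN channels gave 2.15 with a pseudocount of 0.1, 2.39 with the median over cells and 0.30 to 2.4 without 1 cell. Subtype markers gave 1.45 after thinning and 3.02 with the median over cells, in place of -0.039, and -1.08 to 4.65 without 1 cell. Sodium channels gave 0.15 with the median over cells, and GABA genes 0.15 over genes above 0 in all 10 cells and 0.73 to 2.21 without 1 cell. Medians below 0 in place of above it were seen over genes above 0 in all 10 cells for the axon initial segment at -0.29 (0.37 to 2.23 without 1 cell), calcium genes at -0.16 and endoplasmic reticulum genes at -0.093. The same filter gave -1.37 for synaptic adhesion, -0.45 for receptors of secreted factors, -0.16 for chaperones, -0.13 for cholesterol synthesis, -0.097 for ribosomal proteins, -0.068 for cytoskeletal genes and -0.037 for the proteasome. A median below 0 was also seen over genes above 0 in at least 1 cell for proliferation genes, at -0.64 in place of 5.13 over the 3 measured. Fgf13 was -1.01 and Sez6 -0.80 with the median over cells, and Fgf13 was -0.98 to 2.16 without 1 cell, lowest without purified cell 1. The cause of these shifts was not tested, and some of these settings also use fewer or more genes, or fewer cells. No paired analysis was possible because the labels give no numbers shared between the groups and no test was run. Depth limits what a 0 can mean: 3 reads over a group correspond to 0.469 in OCM cells and 0.958 in purified cells.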

Other observations

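Genes of secretion and of energy use were read in most cells. All 11 measured genes of dense-core vesicles and peptide processing were higher in OCM cells, with a median difference of 1.57 that became 0.55 without purified cell 1. The 6 of them above 0 in all 10 cells were also higher, with a median of 0.55, against 53.6% higher and a median of 0.065 over all genes above 0 in all 10 cells. Scg2 and Vgf belong to this list and to the effectors, so the 2 lists are not separate, and Vgf is 1 of the 6. Scg3, a granin that carries cargo into dense-core vesicles, had 3242, 1588, 2738, 3416 and 3918 in OCM cells and 3917, 89.5, 3731, 0 and 548 in purified cells. Chgb, chromogranin B, had 2604, 3594, 4352, 5909 and 5486 in OCM cells and 553, 4337, 784, 824 and 3737 in purified cells, where purified cells 2 and 5 lay inside the OCM range. All 11 glycolysis genes above 0 in all 10 cells were higher in OCM cells, with a median of 0.59, again beside 53.6% and 0.065. Pfkp, a phosphofructokinase of the rate-setting step, had 2362, 2261, 9700.4, 4499.8 and 9777 in OCM cells and 105, 2034, 2739, 0 and 3153 in purified cells, so that OCM cells 3 to 5 were above every purified cell. Gpi, the next enzyme upstream, had 1569, 1936, 2910.4, 1626 and 2072 in OCM cells and 639, 1862, 1379, 1832 and 3.73 in purified cells. Ribosomal protein genes, 40 of which were above 0 in all 10 cells, gave 16 higher and 24 lower.

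Receptors for secreted factors gave 12 higher of 16 measured from 52 in the table, or 75%, against 70.0% of all measured genes. Their median of 1.95 became 0.93 without OCM cell 2, and the 1 member above 0 in all 10 cells was lower. Ackr3, an atypical receptor of the chemokine CXCL12, had 2483, 780.4, 2295, 0 and 1898 in OCM cells and 0 in all 5 purified cells. Lrp1, an endocytic receptor of apolipoproteins, had 662, 454, 249, 319 and 1039 in OCM cells and 0, 822, 0, 0 and 0 in purified cells, where purified cell 2 alone was above 0. Robo2, a receptor of Slit proteins, was 0 in OCM cells 1 to 4 and 24.8 in OCM cell 5, against 461, 989, 21.9, 1.72 and 2223 in purified cells. Of 20 measured genes of cholesterol synthesis 13 were higher, or 65.0%, with a median of 0.73 that became 0.063 without purified cell 5, whereas of the 7 above 0 in all 10 cells 1 was higher. Dhcr7, an enzyme of the last steps, had 29.1, 436, 3697, 0 and 1813 in OCM cells and 1878, 5139, 159, 3263 and 947 in purified cells. Of 10 measured genes of thymidylate synthesis and the p53 response 8 were higher, or 80.0%, against 70.0% of all measured genes. Their median of 2.06 became 0.62 without purified cell 1. Gadd45a and Plk2, both higher, belong to this list and to the effectors. Sesn2, a stress-induced gene of the p53 and ATF4 responses, had 1085, 0, 0, 2489 and 5986 in OCM cells and 0 in all 5 purified cells. Mdm2, the p53 target that degrades p53, was 1 of the 2 lower members, with 174, 0, 0, 0 and 0 in OCM cells and 0, 0, 4831, 3179 and 0 in purified cells.

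GABAergic neurons kept with glia, 6 cells of the same series, are set beside both groups for a few genes. Nefh was 276 to 10714 there, Tnr 0 to 2641, Egr4 0 to 1358 and Stmn1 759.5 to 14440.1, each the lowest and highest of the 6 cells.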
